A study of Mus musculus with 138 samples.

Results

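The 9 genes described here make, bind, break down or respond to retinoic acid. They are the retinaldehyde dehydrogenases Aldh1a1, Aldh1a2 and Aldh1a3, the retinoic acid binding proteins Crabp1 and Crabp2, the degrading enzyme Cyp26b1, the retinoic acid receptors Rarb and Rarg, and the retinoid X receptor Rxrg. They were taken by name from the 55487 genes in the count files, and all 9 passed the filter on low counts that left 19768 genes for testing between regions. Retinoic acid is made from vitamin A: retinol is oxidised to retinaldehyde, and the Aldh1a enzymes carry out the last step. Crabp proteins hold it inside the cell, Cyp26 enzymes oxidise it and end its action, and Rar and Rxr proteins bind DNA together and change transcription when retinoic acid is present. In the skull vault the signal is known to act on bone and suture formation, and loss of CYP26B1 function is known to cause premature suture fusion in humans.

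On build mm10 of the mouse genome, the genes lie at chr6:84571414-84593908 (Cyp26b1, minus strand), chr19:20492715-20643465 (Aldh1a1, plus), chr9:71215789-71296243 (Aldh1a2, plus), chr7:66390890-66427517 (Aldh1a3, minus), chr9:54764748-54773110 (Crabp1, plus), chr3:87948666-87953376 (Crabp2, plus), chr14:16430839-16819156 (Rarb, minus), chr15:102234938-102257517 (Rarg, minus) and chr1:167598384-167639623 (Rxrg, plus). Counts are of read pairs in their exons.

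All animals were wild-type C57BL/6J mouse embryos, an inbred strain, at E16.5 or E18.5 (embryonic day). The suture mesenchyme (SM), the unmineralised tissue between the bones, and the osteogenic fronts (OF), the growing bone edges, were captured by laser from sections of 4 sutures (frontal, coronal, sagittal and lambdoid), and their RNA was amplified and sequenced. The fronts were those of the frontal bone (FR) and parietal bone (PA) in the coronal suture, of the frontal bone in the frontal suture, of the interparietal (IP) and parietal bones in the lambdoid suture, and of the parietal bone in the sagittal suture. This gave 20 groups of 5 first libraries, and the libraries of 1 replicate number in a suture and age carried the same litter label, of which there were 40; 1 such label is called a litter below. Without their last number the 40 labels fell into 17 stems, 3 of which occurred in more than 1 suture (frontal and coronal at each age, lambdoid and sagittal at E18.5), and whether labels of 1 stem are embryos of 1 litter is not given in the sources used here. A captured region holds a mixture of cells, so that fewer cells of a type and less RNA per cell cannot be told apart. In addition, 16 libraries came from complete sutures at E18.5, 18 were second libraries of coronal samples, and 4 were single-cell libraries of pooled coronal sutures.

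Total counts of the 100 first libraries ranged from 7305627 to 34518477, with a median of 14244957. The coronal libraries of E16.5 stood apart: each correlated with the rest of its group at 0.859 to 0.907, against a median of 0.961 over the other 85 libraries, although their total counts, at 20873549 to 34518477, had the highest median of the 8 combinations of suture and age. Of the other 85, 3 fell in the same range: the FR library of replicate 5 in the frontal suture at E18.5, at 0.888, and the SM and FR libraries of replicate 2 in the coronal suture at E18.5, at 0.906 each. The first coronal libraries of E16.5 held counts for 17274 to 22824 genes, against 20627 to 28397 genes in the other 85. Second libraries of their replicates 1, 2 and 3 held counts for 20476 to 23357 genes, from total counts of 13225136 to 17388841. Single comparisons within the coronal suture at E16.5 rest wholly on the first libraries that stood apart. Many of the other counts also use them, and for several the count without them is given.

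The 5 genes that were higher in SM on average have promoter windows in the RefSeq tables, and those windows are shown first. Each runs from 250 bases before to 50 bases after a transcription start on mouse build GRCm38.p6, 5′ to 3′ on the strand of the gene, and capitals mark a 6-base core of a retinoic acid response element on either strand. The consensus core AGGTCA was searched, as were the variant AGTTCA, the variant GGGTCA and the variant GGTTCA, on both strands and with overlaps allowed, together with direct repeats of these cores with 1, 2 or 5 bases between them. Matches are matches of letters and not measured binding.
Rarb, chr14:16575427-16575726, minus strand: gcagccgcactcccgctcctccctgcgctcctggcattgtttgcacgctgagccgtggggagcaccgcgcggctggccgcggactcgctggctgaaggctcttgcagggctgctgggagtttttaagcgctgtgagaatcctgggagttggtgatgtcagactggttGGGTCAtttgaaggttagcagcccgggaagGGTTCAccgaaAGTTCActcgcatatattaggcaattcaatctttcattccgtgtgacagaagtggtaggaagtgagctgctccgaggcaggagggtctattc
Cyp26b1, chr6:84593761-84594060, minus strand: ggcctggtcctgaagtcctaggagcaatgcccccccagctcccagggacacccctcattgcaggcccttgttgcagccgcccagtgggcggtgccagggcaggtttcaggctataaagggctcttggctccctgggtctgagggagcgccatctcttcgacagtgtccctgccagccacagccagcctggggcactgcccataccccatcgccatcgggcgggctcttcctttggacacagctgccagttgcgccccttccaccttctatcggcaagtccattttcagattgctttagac
Aldh1a1, chr19:20492333-20492632, plus strand: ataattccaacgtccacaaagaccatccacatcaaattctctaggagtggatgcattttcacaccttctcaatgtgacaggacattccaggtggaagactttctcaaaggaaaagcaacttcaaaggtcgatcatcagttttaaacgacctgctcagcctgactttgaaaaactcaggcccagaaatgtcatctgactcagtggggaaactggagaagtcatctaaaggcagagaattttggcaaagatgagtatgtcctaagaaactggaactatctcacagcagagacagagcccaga
Aldh1a1, chr19:20601718-20602017, plus strand: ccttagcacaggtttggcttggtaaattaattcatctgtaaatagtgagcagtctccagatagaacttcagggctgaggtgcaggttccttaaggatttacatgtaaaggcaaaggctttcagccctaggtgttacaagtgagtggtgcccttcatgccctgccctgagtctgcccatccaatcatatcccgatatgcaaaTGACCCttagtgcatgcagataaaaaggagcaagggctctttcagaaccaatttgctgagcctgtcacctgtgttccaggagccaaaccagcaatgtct
Aldh1a2, chr9:71215539-71215838, plus strand: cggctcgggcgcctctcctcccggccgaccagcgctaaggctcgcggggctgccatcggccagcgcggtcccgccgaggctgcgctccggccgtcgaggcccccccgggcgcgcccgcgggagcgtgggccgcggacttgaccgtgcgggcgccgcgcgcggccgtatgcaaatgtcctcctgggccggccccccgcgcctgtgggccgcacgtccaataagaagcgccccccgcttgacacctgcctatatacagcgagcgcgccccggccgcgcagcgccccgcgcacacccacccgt
Crabp1, chr9:54764498-54764797, plus strand: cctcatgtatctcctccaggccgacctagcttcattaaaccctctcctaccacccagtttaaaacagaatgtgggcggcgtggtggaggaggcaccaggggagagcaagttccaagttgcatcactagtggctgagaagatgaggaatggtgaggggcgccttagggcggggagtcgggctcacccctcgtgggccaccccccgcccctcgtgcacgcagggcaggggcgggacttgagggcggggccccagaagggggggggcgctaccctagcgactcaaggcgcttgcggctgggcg

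The Rarb window held a direct repeat with 5 bases between its cores, which lay at -53 to -37 from the start. With its spacer it reads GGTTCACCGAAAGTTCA, and a further core lay at -83 to -78. A direct repeat with this spacing was found in 0.0974% of the 32851 windows of all genes, and any of the 3 direct repeats in 0.588%. Of the 2 Aldh1a1 windows, the first held no core and the second a single core on the opposite strand, at -49 to -44. The Cyp26b1, Aldh1a2 and Crabp1 windows held none. A single core is common, since 43.7% of all windows held at least 1. Of the 10 windows of 7 of the genes, 5 held a core and 1 a direct repeat.

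Levels are given as CPM, counts scaled to a library of standard size after TMM normalization, and between genes only per kilobase of exon. On that scale Rarg, a receptor for retinoic acid, was present in every library, with group means between 5.75 and 19.5 CPM per kb. Crabp1, which binds retinoic acid in the cytoplasm, had group means from 0.361 CPM per kb in the lambdoid PA at E18.5 to 79.5 in the frontal SM at E16.5. Group means of Cyp26b1 lay between 1.75 and 7.23 CPM per kb. The synthesising enzymes were lower in most groups, with group means from 0 to 3.44 CPM per kb for Aldh1a1, 0.107 to 12.1 for Aldh1a2 and 0.0972 to 3.44 for Aldh1a3. The highest group mean was 10.4 CPM per kb for Crabp2, 2.03 for Rxrg and 1.19 for Rarb.

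The levels of the 9 genes in the sutures are given as a description, since no litter label occurred in more than 1 suture and sutures cannot be told apart from litters. The frontal SM had the highest group means of Aldh1a1 (17 ± 2.56 CPM, mean ± SD, n = 5), Aldh1a2 (27.3 ± 8.51), Crabp1 (63.7 ± 15.9) and Rarb (6.29 ± 1.93). The lambdoid SM had those of Cyp26b1 (38.7 ± 13.4), Aldh1a3 (15.9 ± 12.6), Crabp2 (13.7 ± 1.87) and Rarg (83 ± 11.4), and the coronal SM that of Rxrg (4.65 ± 2.73). When the 20 groups were ordered by their mean, few neighbours in the order were apart. Of 19 neighbouring pairs, the means differed by more than the pooled SD in none for Cyp26b1, Aldh1a2 and Crabp2, in 1 for Aldh1a3 and Rarb, in 2 for Crabp1, Rarg and Rxrg, and in 3 for Aldh1a1. The highest group was clear of the next, with no overlap of libraries, for Crabp1 (frontal SM at E16.5 above E18.5) and Rarg (lambdoid SM at E18.5 above E16.5).

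**Figure D1:**
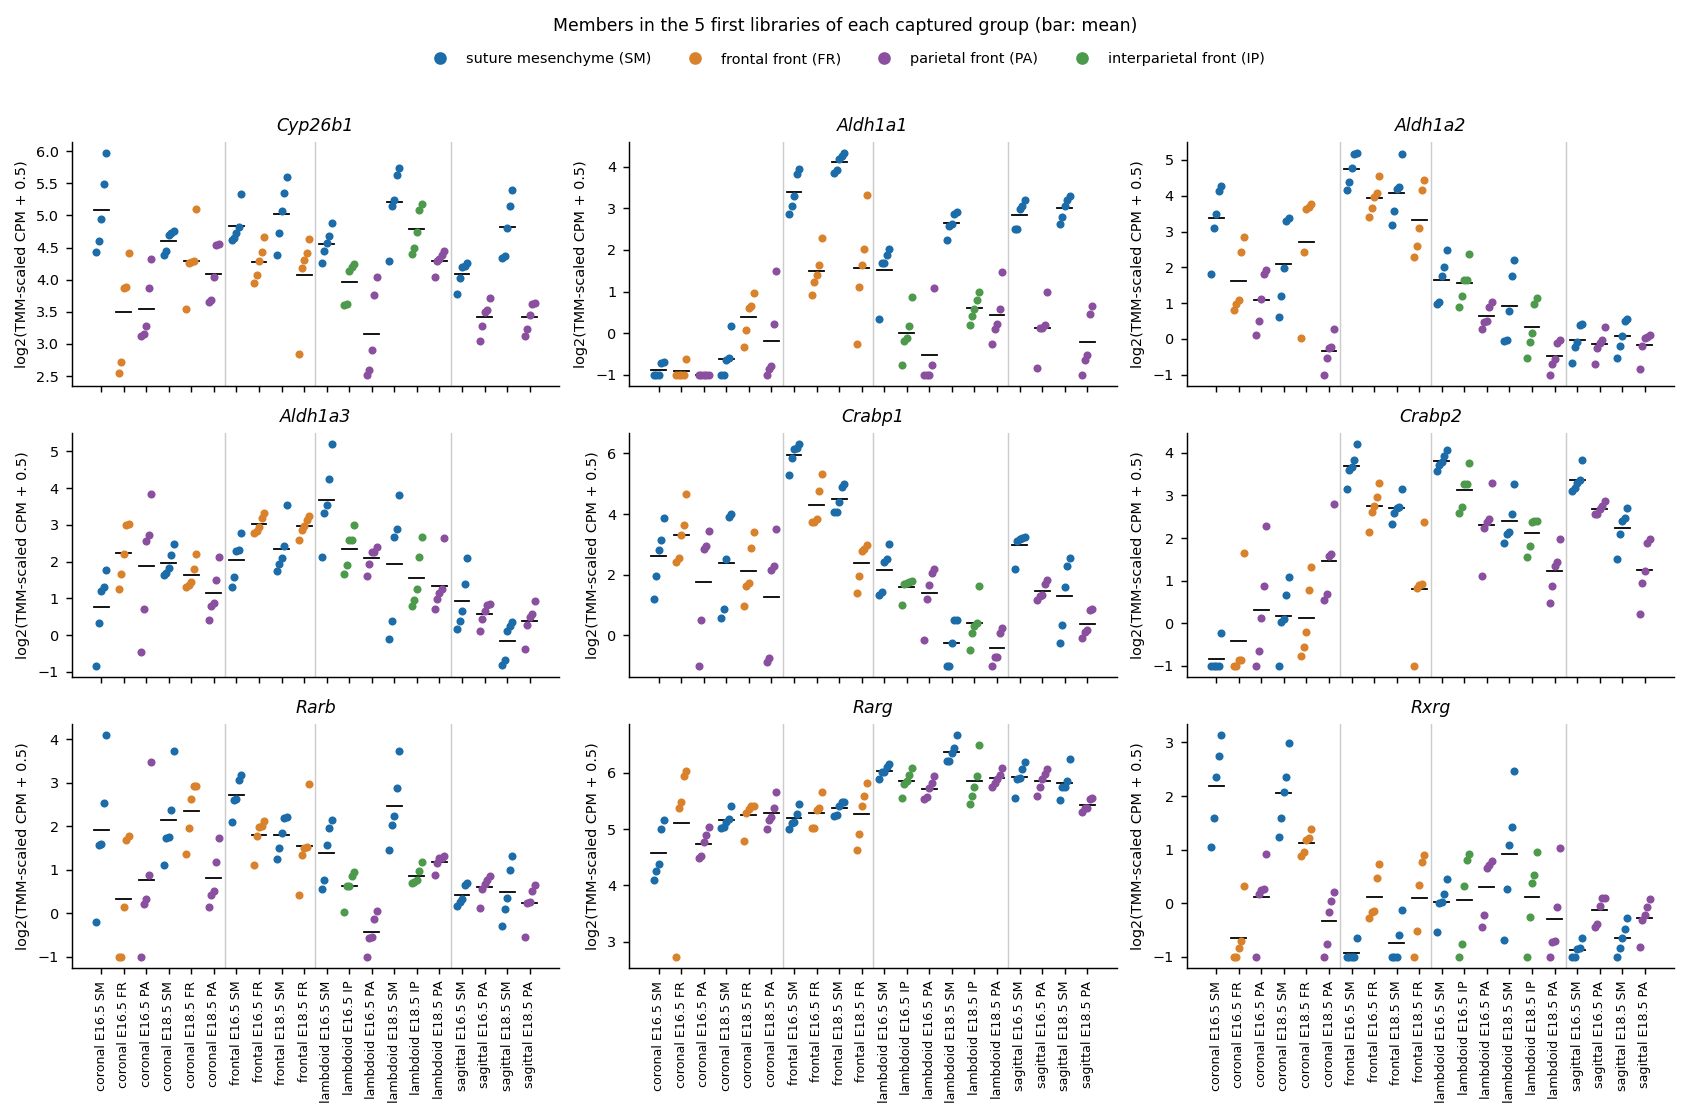
Level of each gene in the 5 first libraries of each of the 20 groups, as log2 of CPM plus 0.5, with 1 point for each library and a bar for the mean, coloured by region. The Aldh1a1 libraries of the coronal suture at E16.5 lie at the floor of the axis, and the 5 frontal SM libraries of Crabp1 at E16.5 (39 to 79.2 CPM) lie above the 5 of E18.5 (16.4 to 31.4 CPM).

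The comparison of SM with OF asks which genes distinguish the mesenchyme from the bone edges it separates. Averaged over the 4 sutures and both ages, the degrading enzyme Cyp26b1, the synthesising enzymes Aldh1a1 and Aldh1a2, the binding protein Crabp1 and the receptor Rarb were higher in SM. The fold differences were 1.9 for Cyp26b1 (log2 fold change 0.93, SE 0.10, adjusted p = 9.31e-13), 5.1 for Aldh1a1 (2.35, SE 0.37, adjusted p = 2.3e-07), 2.19 for Aldh1a2 (1.13, SE 0.21, adjusted p = 6.96e-06), 1.93 for Crabp1 (0.95, SE 0.26, adjusted p = 0.00142) and 1.98 for Rarb (0.98, SE 0.28, adjusted p = 0.00201). No gene of the 9 was lower in SM. Aldh1a3 (-0.12, adjusted p = 0.654), Crabp2 (0.41, 0.263), Rarg (0.08, 0.395) and Rxrg (-0.50, 0.202) did not pass the test. The test was the quasi-likelihood test of edgeR with the litter as a block, two-sided, with Benjamini-Hochberg adjustment over all genes tested and a threshold of 0.05. Of all genes tested, 54.9% passed it in this comparison, so that 5 of 9 is near the background. The share of all genes higher in SM was 27.6%. The median log2 fold change of the 9 genes was 0.93, against 0.047 over all genes. The 9 genes were chosen with earlier results of these data known, so that their shared direction is not independent evidence. Without the coronal libraries of E16.5, a choice made after seeing the data, 8 of 9 genes passed (60.5% of all genes): Crabp2 was then higher (0.86, adjusted p = 0.000194), as was Rarg (0.16, adjusted p = 0.00563), and Rxrg was lower (-1.06, adjusted p = 0.00807). The 5 genes above passed under all 16 alternatives that were tried. None of these addressed the exon bases of Rarb that are shared with Top2b on the opposite strand (34.1%) and were counted without strand. The Rarb difference is therefore uncertain.

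In the 12 single comparisons of an SM with an OF of its suture and age, 28 of the 108 tests passed, 23 with the gene higher in SM and 5 lower, beside 19% of all tests and 8.16% higher in SM over all genes. Aldh1a1 was higher in SM in 7 of the 12, Cyp26b1 in 6, Aldh1a2 in 4, Rxrg in 3, and Aldh1a3, Crabp1 and Rarb in 1 each. Aldh1a3 was lower in 2, and Crabp2, Rarg and Rxrg in 1 each. The coronal suture at E16.5 held 10 of the 28, with 5 of 9 genes against FR (27.2% of all genes) and 5 of 9 against PA (33.3%), and with both directions among them. At E18.5 in the same suture none of 9 passed against FR (3.53%) and 2 against PA (18%). Against FR, 1 of 9 had an unadjusted p under 0.05, beside 2653 of all 19768 genes. There DESeq2 called 1 and limma voom none. Over the 12 comparisons these tools called 22.9% and 19.5% of all tests over all genes. In edgeR the share was 19% over the 12 and 3.53% here, so that these pooled shares are no background for this comparison. The shares of these tools in this comparison alone are not given here. In the frontal suture 1 gene passed at E16.5 (8.83%) and 3 at E18.5 (11.3%), and in the sagittal suture 1 at E16.5 (18.4%) and 2 at E18.5 (26.1%). In the lambdoid suture 1 gene passed against IP and 4 against PA at E16.5 (12% and 24.1%), and 1 and 3 at E18.5 (20.4% and 25%). The libraries of SM and OF did not overlap in 26 of the 108 cases, with SM above in 24, beside 17.6% of all cases over all genes, and in 22 of the 90 outside the coronal suture of E16.5, with SM above in 20, beside 19.9%. Of the 28 calls, 12 held under all 16 alternatives and 15 were lost when 1 replicate number was left out in every group. Losses are given where the gene is described, long lists by their largest p. In the 10 comparisons without coronal libraries of E16.5, 18 of 90 tests passed, beside 16.8% of all tests over all genes, and 36 of 90 when those libraries were also kept out of the fit, beside 25.6%. The 18 calls of the former were all among the 36. Of the 18 gained, 4 were of Rarg, 3 each of Crabp2 and Rarb, 2 each of Cyp26b1, Crabp1 and Rxrg, and 1 each of Aldh1a1 and Aldh1a3, with SM higher in all but 1 of Crabp2 (against PA in the coronal suture at E18.5) and 1 of Rxrg (against PA in the sagittal suture at E16.5).

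**Figure D2:**
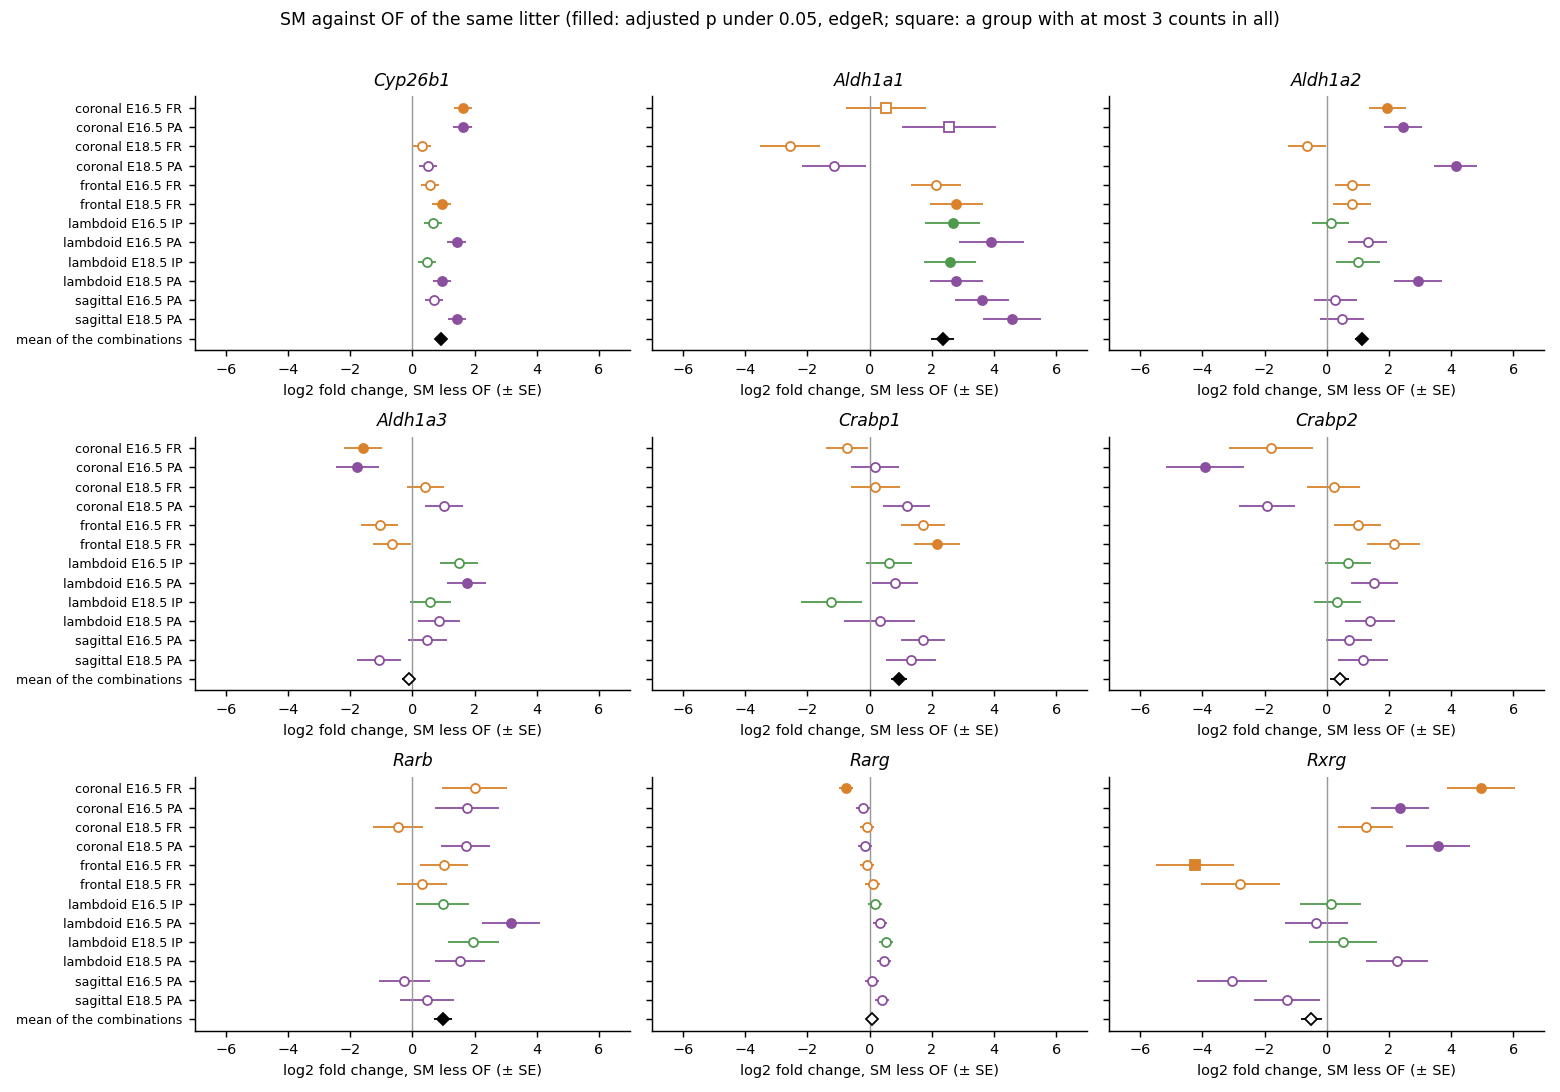
Log2 fold change of SM over each OF, with positive values for a higher level in SM, for the 9 genes in the 12 comparisons and for their mean (diamonds). Bars reach 1 standard error to each side, filled symbols passed the test (adjusted p under 0.05), and squares mark comparisons in which a group held at most 3 counts. All 12 values of Cyp26b1 lie above 0, and those of Rxrg run from -4.24 to 4.97.

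Aldh1a1, a cytosolic retinaldehyde dehydrogenase, showed the largest average difference between SM and OF of the 9 genes and was higher in SM in the frontal, lambdoid and sagittal sutures. In the sagittal suture at E18.5, the 5 SM libraries held 9.33, 8.78, 6.46, 7.86 and 5.71 CPM (replicates 1 to 5) and the PA libraries 1.07, 0.867, 0.193, 0 and 0.134 CPM. Every SM library was above every PA library, and the difference was 24-fold (log2 fold change 4.58, SE 0.93, adjusted p = 9.54e-05). At E16.5 the sagittal SM held 8.78, 5.19, 7.4, 7.85 and 5.13 CPM against 0.596, 0.059, 1.48, 0.58 and 0.635 CPM in PA, again without overlap (log2 fold change 3.63, SE 0.87, adjusted p = 0.00133). The share of all genes whose libraries separated in this direction was 14.7% at E18.5 and 14.6% at E16.5.

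In the frontal suture at E18.5 the SM held 14.8, 17.8, 13.8, 18.7 and 19.8 CPM of Aldh1a1 and FR 2.62, 3.54, 1.67, 0.339 and 9.52 CPM. The groups did not overlap (log2 fold change 2.79, SE 0.85, adjusted p = 0.0215), as was true in this direction of 5.76% of all genes, and the highest FR value, 9.52 CPM, came from replicate 5, the library that stood apart. The call was lost without replicate 3 or 4 (adjusted p = 0.0564 and 0.145) or without frontal litters 2 and 5 of E18.5 (0.0541). At E16.5 they were also apart, with 13.8, 7.82, 9.39, 14.9 and 6.74 CPM in SM and 2.14, 1.4, 1.83, 2.59 and 4.41 CPM in FR (8.92% of all genes), but the adjusted p was 0.0909. In the lambdoid suture at E18.5 the SM held 5.51, 6.84, 7.06, 5.67 and 4.23 CPM, above every value of IP (0.654 to 1.48) and PA (0.338 to 2.26), as for 7.95% and 9.85% of all genes, with log2 fold changes of 2.59 and 2.79 (adjusted p = 0.0189 and 0.0106). That against IP did not hold without replicate 3 or 4 (adjusted p = 0.0581 and 0.0628). Both lambdoid comparisons at E16.5 passed as well (adjusted p = 0.0377 against IP and 0.00385 against PA), with some overlap of libraries, and the difference from IP was lost without replicate 2, 3 or 5 (adjusted p = 0.0922, 0.13 and 0.175), without the litter block (0.0715) or with limma voom (0.127).

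In the coronal suture Aldh1a1 was close to the limit of detection. At E16.5 the 15 coronal libraries held 4 counts in SM, 3 in FR and none in PA in all, so that no fold is given. At E18.5 the SM held 3, 0, 4, 0 and 14 counts in its 5 libraries, FR 7, 25, 12, 36 and 25 and PA 1, 0, 48, 13 and 2. Here the higher values lay in the fronts, at up to 1.46 CPM in FR and 2.33 CPM in PA, and neither difference passed the test (adjusted p = 0.151 and 0.507).

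Aldh1a2, the main retinaldehyde dehydrogenase of early embryonic mesoderm, was higher in the coronal SM than in both fronts at E16.5 and than in PA at E18.5. At E16.5 the coronal SM held 8.02, 10.8, 17.1, 3.04 and 19 CPM, FR 1.26, 4.91, 6.63, 1.6 and 1.46 CPM and PA 2.99, 3.31, 0.581, 1.66 and 0.919 CPM. The SM value of replicate 4 fell among those of the fronts and the others were above them (log2 fold change 1.95, SE 0.59, adjusted p = 0.00975 against FR; 2.44, SE 0.62, adjusted p = 0.00142 against PA). The difference from FR did not pass without replicate 5 (adjusted p = 0.0873) or with each suture fitted by itself (0.0784). At E18.5 the SM held 1.78, 1.02, 9.24, 3.45 and 9.95 CPM and PA 0.189, 0, 0.34, 0.355 and 0.71 CPM, a difference of 17.7-fold without overlap (log2 fold change 4.14, SE 0.69, adjusted p = 4.54e-06). Libraries separated in this direction for 4.7% of all genes. FR at this age held 13.1, 0.52, 4.92, 12.4 and 11.9 CPM and overlapped with SM (adjusted p = 0.755).

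The fronts of the coronal suture thus differed from each other in Aldh1a2 at E18.5. FR was 27.7-fold higher than PA (log2 fold change 4.79, SE 0.70, adjusted p = 2.08e-06), although FR replicate 2, at 0.52 CPM, was below PA replicate 5, at 0.71 CPM. This was the only 1 of the 36 tests between fronts of 1 suture that passed, beside 6.16% of all genes in the same comparison. At E16.5 the coronal fronts differed by 0.49 on the log2 scale (SE 0.60, adjusted p = 0.667). None of the 9 genes passed between the fronts of the coronal suture at E16.5 (9.1% of all genes), of the lambdoid suture at E16.5 (0.976%) or of the lambdoid suture at E18.5 (0.0152%) in edgeR. At an unadjusted p under 0.05 there were 2, 2 and 1 of them, beside 4934, 1701 and 616 of all 19768 genes. DESeq2 called 3, 0 and 0 of the 9, and limma voom 1, 0 and 0. Over the 4 comparisons of fronts, DESeq2 called 8.52% and limma voom 6.14% of all tests over all genes. The edgeR shares of single comparisons ran from 0.0152% to 9.1%, so that these pooled shares are no background for any single comparison. Without the coronal libraries of E16.5, 4 of the 27 tests left between fronts passed (5.59% of all tests over all genes), against 1 of 27 with them (2.38%). Aldh1a2 kept its call (log2 fold change 4.79, adjusted p = 9.91e-08). The 3 gained were Rarb, higher in FR than in PA in the coronal suture at E18.5 (2.20, SE 0.46, adjusted p = 0.000481) and higher in IP than in PA in the lambdoid suture at E16.5 (2.14, SE 0.57, 0.0218), and Crabp2, lower in FR than in PA in the coronal suture at E18.5 (-1.99, SE 0.63, 0.0246).

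Outside the coronal suture, Aldh1a2 was higher in the lambdoid SM than in PA at E18.5 (log2 fold change 2.92, SE 0.77, adjusted p = 0.00269), with 0.469, 1.22, 4.07, 2.9 and 0.458 CPM in SM and 0.431, 0, 0.481, 0.113 and 0.183 CPM in PA. The ranges met in the lower SM libraries, where PA replicate 3 was above SM replicates 1 and 5, and the call was lost with the litter as a random effect (adjusted p = 0.137) or with limma voom (0.0991). In the frontal suture the enzyme was at its highest in both regions, from 8.59 to 36.4 CPM in the 10 SM libraries and from 4.37 to 23 CPM in the 10 FR libraries, and the log2 fold change did not pass at E16.5 (0.83, adjusted p = 0.516) or at the later age (0.81, 0.517). No sagittal library exceeded 1 CPM.

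Aldh1a3, the third enzyme of the family, was lower in SM in the coronal suture and higher in SM in the lambdoid suture at E16.5. The coronal SM was lower than FR, with 0.756, 1.79, 2.94, 1.97 and 0.0604 CPM against 7.64, 1.89, 7.49, 4.11 and 2.69 CPM (log2 fold change -1.59, SE 0.62, adjusted p = 0.0498), and lower than PA, with 13.8, 6.09, 0.232, 1.15 and 5.41 CPM (-1.78, SE 0.70, adjusted p = 0.0425). The groups overlapped, and the first p lies at the threshold. The difference from FR was lost without replicate 1, 4 or 5 (adjusted p = 0.186, 0.0559 and 0.159), with the second coronal libraries (0.103) or without frontal litters 2 and 5 of E18.5 (0.0507) and under other alternatives (up to 0.249). That from PA was lost without replicate 1, 2 or 5 (adjusted p = 0.328, 0.115 and 0.346) or with the second coronal libraries (0.152) and under other alternatives (up to 0.22). At E18.5, outside the libraries that stood apart, the coronal SM held 4.03, 5.08, 3.07, 2.74 and 2.62 CPM, FR 3, 1.99, 2.07, 4.14 and 2.21 CPM and PA 1.32, 1.23, 3.88, 2.34 and 0.828 CPM. The fitted differences were then positive and did not pass (log2 fold change 0.41, adjusted p = 0.857, against FR and 1.01, 0.283, against PA), and the change of sign between the ages was not tested within the coronal suture. In the lambdoid suture at E16.5 the SM held 18.6, 11.1, 9.42, 3.9 and 36.4 CPM and was higher than PA (4.77, 4.29, 2.56, 4.28 and 3.32 CPM, log2 fold change 1.75, SE 0.63, adjusted p = 0.0335). SM replicate 4 there was below 3 of the PA libraries, and the test failed without replicate 1, 2 or 5 (adjusted p = 0.103, 0.0642 and 0.163).

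**Figure D3:**
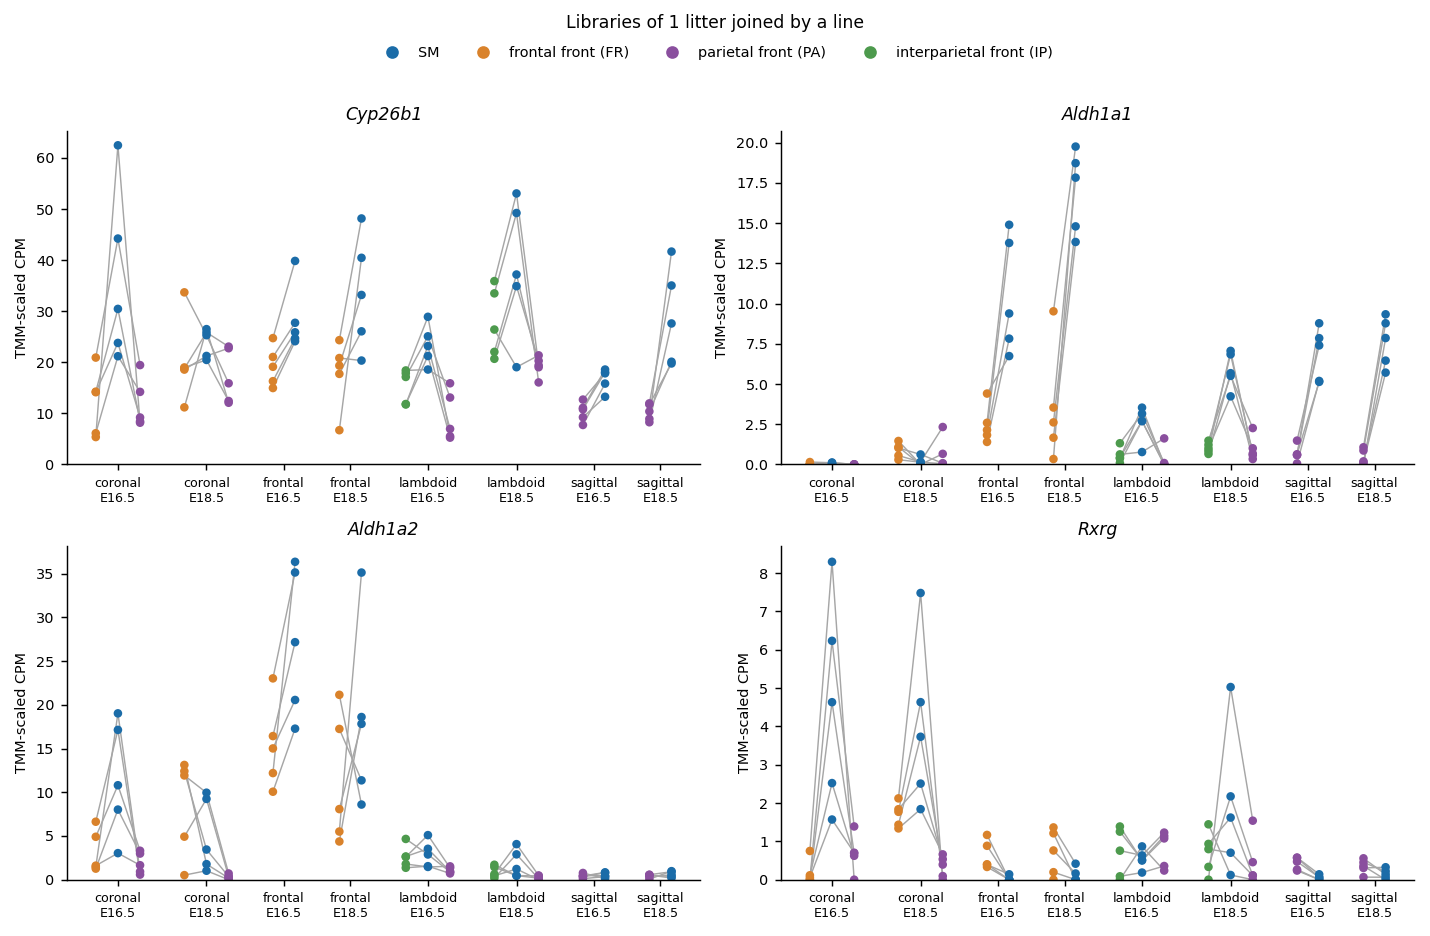
Levels of Cyp26b1, Aldh1a1, Aldh1a2 and Rxrg in CPM in SM and in each OF of the 4 sutures at both ages, with 1 point for each library and lines joining libraries of the same litter. Cyp26b1 was higher in SM in 55 of the 60 pairs, Aldh1a1 in 44, Aldh1a2 in 46 and Rxrg in 32. Coronal and lambdoid SM libraries enter a pair with each front. Against the mean of the fronts, SM was higher in 38, 32, 29 and 16 of the 40 litters, in the same order of genes.

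Cyp26b1, which oxidises retinoic acid and ends its signal, was higher in SM in most litters. Its fitted log2 fold change was above 0 in all 12 comparisons, as was true of 9.2% of all genes, and SM was higher than OF of the same litter in 55 of 60 pairs. In the coronal and lambdoid sutures an SM library enters a pair with each front, so that the pairs are not independent. By litter, SM was above the mean of its fronts in 38 of 40. The share of all genes in such counts is not given here. The SM of the coronal suture at E16.5 held 30.4, 62.5, 44.2, 21.2 and 23.8 CPM, FR 14.2, 5.37, 20.9, 6.11 and 14.1 CPM and PA 8.42, 8.17, 19.4, 14.2 and 9.19 CPM. The lowest SM library was above the highest library of each front, at differences of 3.09-fold (log2 fold change 1.63, SE 0.30, adjusted p = 2.85e-05) and 3.06-fold (1.61, SE 0.30, adjusted p = 1.93e-05). Libraries separated in this direction for 1.79% of all genes against FR and 2.82% against PA. At E18.5 the coronal SM held 26.5, 25.3, 20.5, 21.2 and 25.9 CPM, within the range of FR (11.2 to 33.7) and overlapping with PA (12.1 to 23.1). Neither difference passed (log2 fold change 0.30, adjusted p = 0.754, and 0.51, adjusted p = 0.233).

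In the sagittal suture at E18.5 the SM held 19.8, 35, 41.7, 27.6 and 20.1 CPM of Cyp26b1 and PA 11.8, 12, 8.93, 8.26 and 10.4 CPM, with no overlap, as for 14.7% of all genes in this direction (log2 fold change 1.44, SE 0.30, adjusted p = 9.83e-05). At E16.5 the sagittal libraries were also apart (14.6% of all genes), with SM at 13.2 to 18.6 and PA at 7.73 to 12.7 CPM, but the adjusted p was 0.0838. In the lambdoid suture SM was higher than PA at both ages (log2 fold change 1.43, SE 0.30, adjusted p = 0.000189 at E16.5, and 0.94, SE 0.29, adjusted p = 0.0121 at E18.5), although at E18.5 not without replicate 1 (adjusted p = 0.0859). Against IP the differences were smaller and did not pass (0.65 and 0.46, adjusted p = 0.154 and 0.294), and the difference between IP and PA was not past the threshold at either age (adjusted p = 0.286 at E16.5). In the frontal suture the difference passed at E18.5 (log2 fold change 0.94, SE 0.30, adjusted p = 0.0274) and not at E16.5 (0.56, SE 0.29, adjusted p = 0.292). The former was lost without replicate 1, 2 or 5 (adjusted p = 0.0976, 0.243 and 0.0751), with limma voom (0.0673) or without frontal litters 2 and 5 of E18.5 (0.677).

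Crabp1 was higher in SM than in FR of the frontal suture at E18.5. The SM held 20.6, 28.9, 16.4, 16.4 and 31.4 CPM and FR 7.39, 2.14, 6.47, 6.78 and 3.43 CPM, with no overlap, as for 5.76% of all genes (log2 fold change 2.16, SE 0.74, adjusted p = 0.0452). The test did not pass without replicate 1, 2, 4 or 5 (adjusted p = 0.0716, 0.148, 0.0918 and 0.237), without TMM (0.057), with filterByExpr (0.0532) or without frontal litters 2 and 5 of E18.5 (0.611). At E16.5 it stood at 79.2, 39, 70.4, 72.4 and 57.6 CPM in the frontal SM and 13.9, 12.8, 26.9, 12.9 and 39.5 CPM in FR, where FR replicate 5 was above SM replicate 2 (adjusted p = 0.14). With both ages pooled, Crabp1 was higher in SM in the frontal suture (log2 fold change 1.93, SE 0.51, adjusted p = 0.00341) and in the sagittal suture (1.52, SE 0.54, adjusted p = 0.0209). The frontal mean did not pass without frontal litters 2 and 5 of E18.5 (adjusted p = 0.0616). The means over both ages did not pass in the coronal suture (0.20, adjusted p = 0.764) or the lambdoid suture (0.13, 0.888).

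Crabp2, which carries retinoic acid to its nuclear receptors, was nearly missing from the coronal SM at E16.5. Its CPM there was 0.353, 0, 0, 0 and 0, against 0.134, 4.33, 0.581, 1.33 and 0 in PA (log2 fold change -3.92, SE 1.25, adjusted p = 0.0119) and 0, 0.0511, 2.65, 0.0501 and 0 in FR (adjusted p = 0.343). Of these 15 libraries, 7 held no count, and the larger values came from 1 library of FR and 2 of PA. The difference from PA was lost without replicate 2 or 4 (adjusted p = 0.17 and 0.148) or with each suture fitted by itself (0.258). Second libraries of replicates 1, 2 and 3 of this SM, scaled in a separate run, held 2.72, 0.149 and 0.679 CPM. With second libraries in place of the first wherever there was one, the coronal SM of E18.5 was lower than FR (-2.86, adjusted p = 0.0216), against 0.23 (adjusted p = 0.959) in the first libraries. In the other sutures the gene was detected in every SM library, between 2.35 and 18 CPM, and the fitted differences were all positive. The mean over both ages passed in the frontal suture (log2 fold change 1.57, SE 0.56, adjusted p = 0.0415), but not without frontal litters 2 and 5 of E18.5 (adjusted p = 0.202).

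Rarb, a retinoic acid receptor whose own gene retinoic acid is known to induce, was higher in the lambdoid SM than in PA at E16.5. The SM held 1.2, 0.965, 2.44, 3.9 and 3.4 CPM and PA 0.191, 0, 0.409, 0.178 and 0.539 CPM, without overlap (log2 fold change 3.17, SE 0.94, adjusted p = 0.00795), and 13% of all genes separated in this direction. The lambdoid SM of E18.5, at 2.23, 12.7, 4.17, 3.59 and 6.87 CPM, was also above all libraries of both fronts, which reached 2.01 CPM. Libraries separated in this direction for 7.95% of all genes against IP and 9.85% against PA, and neither adjusted p of Rarb passed (0.0887 against IP and 0.18 against PA). Values of Rarb are uncertain, because 1793 of its exon bases (34.1%) are shared with Top2b on the opposite strand, a gene at up to 497 CPM, and the counting did not use strand. How many of the counts belong to Rarb was not tested.

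Rarg was close to equal in SM and OF. Over all sutures and ages the difference was 0.08 on the log2 scale (SE 0.07), and 1 comparison passed, in which the coronal SM of E16.5, at 16.54, 35.4, 31.6, 18.7 and 20.2 CPM, was lower than FR, at 44.2, 64.9, 61.1, 40.9 and 6.14 CPM (log2 fold change -0.76, SE 0.23, adjusted p = 0.00914). FR replicate 5 was the lowest of all 10 values, while the other 4 FR libraries were above every SM library. This call was lost without replicate 1, 3 or 4 (adjusted p = 0.12, 0.0577 and 0.0632) or with the second coronal libraries (0.794) and under other alternatives (up to 0.146). In the lambdoid suture, with both ages pooled, SM was higher (log2 fold change 0.38, SE 0.14, adjusted p = 0.0204).

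Rxrg, a partner of Rar and other nuclear receptors, changed direction between sutures. In the coronal suture at E16.5 the SM held 2.52, 6.23, 8.3, 4.63 and 1.57 CPM, FR 0.115, 0, 0.749, 0 and 0.0584 CPM and PA 0.624, 1.39, 0, 0.69 and 0.703 CPM. SM was above both fronts in every library, by 31.3-fold (log2 fold change 4.97, SE 1.09, adjusted p = 0.00038) and 5.11-fold (2.35, SE 0.94, adjusted p = 0.0473). Libraries separated in this direction for 1.79% of all genes against FR and 2.82% against PA. FR held 16 counts in all, 13 of them from replicate 3. The difference from PA was lost without replicate 1, 3, 4 or 5 (adjusted p = 0.0906, 0.0874, 0.139 and 0.0696), with filterByExpr (0.0521) or with each suture fitted by itself (0.177). At E18.5 it stood at 4.63, 7.48, 2.51, 1.84 and 3.73 CPM in the coronal SM and was higher than in PA (log2 fold change 3.58, SE 1.03, adjusted p = 0.00904), where it reached 0.66 CPM, although not without replicate 1 (adjusted p = 0.0596) or with each suture fitted by itself (0.0803). FR, at 1.77, 2.12, 1.84, 1.34 and 1.43 CPM, overlapped with SM (adjusted p = 0.62).

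In the frontal suture Rxrg was lower in SM. At E16.5 the 5 SM libraries held 3 counts in all, from replicate 2, and the FR libraries 52, a ratio of FR over SM of 15.4 with an interval of 4.99 to 77.2 that covers counting error only. The test passed (adjusted p = 0.0193), but not without replicate 1, 4 or 5 (adjusted p = 0.154, 0.132 and 0.107), and both the fitted value and this ratio rest on the 3 counts. The sagittal SM was also lower, with both ages pooled (log2 fold change -2.17, SE 0.78, adjusted p = 0.024), and all sagittal values were under 0.6 CPM.

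The difference between SM and OF varied among the 4 sutures beyond the replicate error for 4 of the 9 genes, beside 19.9% of all genes (edgeR, an F test over the 4 suture means, adjusted). With both ages pooled, 4 genes passed in the coronal suture (35.6% of all genes), 5 in the frontal (18.3%), 6 in the lambdoid (40%) and 4 in the sagittal suture (35.4%). The coronal calls of Cyp26b1 (0.42, adjusted p = 0.144) and Crabp2 (-0.81, adjusted p = 0.318) were lost without the libraries of E16.5, while those of Aldh1a2 (1.71, adjusted p = 0.00473) and Rxrg (2.41, adjusted p = 0.00655) passed, beside 22.8% of all genes. Without the frontal litters 2 and 5 of E18.5, 2 frontal calls were left, those of Aldh1a1 (2.89, adjusted p = 0.00242) and Rxrg (-3.19, adjusted p = 0.0142), beside 14.1% of all genes, and that of Cyp26b1 was among the lost (0.54, adjusted p = 0.105). The 4 genes whose difference varied among sutures were Rxrg (adjusted p = 1.46e-06), Crabp2 (0.0202), Aldh1a3 (0.0224) and Rarg (0.0355). The suture means of Rxrg were 3.04 (coronal), 0.65 (lambdoid), -2.17 (sagittal) and -3.51 (frontal) on the log2 scale. Those of Crabp2 were negative only in the coronal suture (-1.85, against 0.95 to 1.57 elsewhere), and those of Aldh1a3 positive only in the lambdoid suture (1.17, against -0.86 to -0.30). For Cyp26b1 the suture means lay between 0.75 and 1.07, and their difference did not pass (adjusted p = 0.838). The suture means of Aldh1a1 ran from -0.16 in the coronal suture to 4.11 in the sagittal suture, but their difference did not pass either (0.494). Coronal counts of Aldh1a1 were few, and the part of this in the result was not tested. Among the 4 calls, that of Rxrg held under all 16 alternatives, whereas Crabp2 was lost without replicate 2, 3, 4 or 5 (adjusted p = 0.112, 0.184, 0.164 and 0.0944) or without the coronal libraries of E16.5 (0.0593). Aldh1a3 did not pass without replicate 1, 2, 4 or 5 (adjusted p = 0.109, 0.162, 0.0668 and 0.0632) or with the litter as a random effect (0.0577), nor did Rarg without replicate 1, 2, 3 or 4 (adjusted p = 0.207, 0.104, 0.086 and 0.123), with the litter as a random effect (0.0765), without TMM (0.102) or with the second coronal libraries (0.137). Without the coronal libraries of E16.5, Aldh1a1 (adjusted p = 0.000123) and Rarb (adjusted p = 0.00556) also differed among sutures, which made 5 of 9, beside 23.6% of all genes.

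Between the ages, the difference between SM and OF did not change detectably. For 0 of the 9 genes the change from E16.5 to E18.5 passed (edgeR; none had an unadjusted p under 0.05, and DESeq2 and limma voom called none), beside 0.87% of all genes. Over all genes, 2018 of 19768 had an unadjusted p under 0.05. The fitted changes of the 9 genes ranged from -0.60 (SE 0.45, Aldh1a1) to 0.87 (SE 0.71, Rxrg) on the log2 scale. The same count was 0 without the coronal libraries of E16.5 and without the frontal litters 2 and 5 of E18.5.

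The comparison of ages asks how the level within a region changed from E16.5 to E18.5. It was made in the 40 SM libraries and in the 40 sums of OF counts of a litter. No litter label or label stem occurred at both ages, so that age cannot be told apart from litter or library preparation. Averaged over the 4 sutures, Crabp1 was lower at E18.5 in SM (log2 fold change -1.54, SE 0.32, adjusted p = 0.000456) and in OF (-1.57, SE 0.22, adjusted p = 1.35e-06), and Aldh1a1 was higher in SM (1.01, SE 0.27, adjusted p = 0.00683) and in OF (1.57, SE 0.42, adjusted p = 0.00871). In SM, Rarg was also higher (log2 fold change 0.24, SE 0.08, adjusted p = 0.0403), so that 3 of the 9 genes passed, beside 13.9% of all genes. Within single sutures 4 of 36 tests passed in SM, 3 of them in the coronal suture, with 31.6% of all genes called in the coronal, 3.12% in the frontal, 3.63% in the lambdoid and 1.32% in the sagittal suture. In OF, Crabp2 (-0.93, adjusted p = 0.0369) and Aldh1a3 (-0.54, 0.0472) were lower and Cyp26b1 higher (0.36, 0.0461), which made 5 of 9, beside 13.4% of all genes. Within single sutures 4 of 36 tests passed in OF, beside 23.9% of all genes in the coronal, 10% in the frontal, 0.692% in the lambdoid and 3.61% in the sagittal suture. Crabp1 kept its call in both regions under all 17 alternatives. With the label stem as a random effect in limma voom, an alternative chosen after seeing the data, it was the only one of the 9 genes that passed on average, in SM (8.03% of all genes) and in OF (12%). In SM, the call of Aldh1a1 was lost without replicate 5 (adjusted p = 0.0664) or with the second coronal libraries (0.526) and under other alternatives (up to 0.129), and that of Rarg without replicate 1, 4 or 5 (adjusted p = 0.131, 0.174 and 0.118), with the second coronal libraries (0.273), without frontal litters 2 and 5 of E18.5 (0.0649) or without the coronal suture (0.157) and under other alternatives (up to 0.225). In OF, Aldh1a1 was lost without replicate 2 (adjusted p = 0.0724), with limma voom (0.0586), with the second coronal libraries (0.325), with the label stem as a random effect (0.0585) or without the coronal suture (0.603). Crabp2 was lost there without replicate 2, 3 or 4 (adjusted p = 0.0999, 0.158 and 0.175) or without frontal litters 2 and 5 of E18.5 (0.056) and under other alternatives (up to 0.11). Cyp26b1 did not pass without replicate 1, 2, 4 or 5 (adjusted p = 0.126, 0.131, 0.154 and 0.0877) or without the coronal suture (0.128) and under other alternatives (up to 0.108), nor did Aldh1a3 without replicate 1, 2, 3 or 5 (adjusted p = 0.0756, 0.178, 0.14 and 0.157), with the second coronal libraries (0.0507) or without the coronal suture (0.253) and under other alternatives (up to 0.345). The test of whether such a change differed between SM and OF is the one above, which no gene of the 9 passed.

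The ages were also compared in the frontal, lambdoid and sagittal sutures alone, a choice made after seeing that the coronal libraries of E16.5 stood apart. In SM, 5 of 9 genes then passed, beside 22.4% of all genes. Crabp2 (-1.22, adjusted p = 4.37e-08), Crabp1 (-2.10, adjusted p = 3.23e-07) and Aldh1a3 (-1.01, adjusted p = 0.0446) were lower at E18.5, and Cyp26b1 (0.58, adjusted p = 0.000924) and Aldh1a1 (0.68, adjusted p = 0.0007) were higher. In OF, Crabp1 (-1.78, adjusted p = 8.17e-07) and Crabp2 (-1.51, adjusted p = 2.4e-05) were lower, 2 of 9 beside 17.9% of all genes. Within these 3 sutures 10 of 27 tests then passed in SM (10.4% of all tests over all genes) and 7 of 27 in OF (8.89%), against 1 (2.69%) and 2 (4.78%) with the coronal suture in the fit.

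Crabp1 passed in 3 of its 8 tests within a suture, each time lower at E18.5. In the lambdoid SM it stood at 4.89, 5.21, 1.99, 2.23 and 7.49 CPM at E16.5 and 0.938, 0, 0, 0.347 and 0.915 CPM at E18.5. The ages did not overlap (log2 fold change -3.29, SE 0.78, adjusted p = 0.00849), as was true in this direction of 4.11% of all genes, and the call was lost with the litter as a random effect (adjusted p = 0.239), with limma voom (0.201) or with the label stem as a random effect (0.302). The frontal SM held 79.2, 39, 70.4, 72.4 and 57.6 CPM at E16.5 and 20.6, 28.9, 16.4, 16.4 and 31.4 CPM at E18.5, again without overlap (6.12% of all genes), but the adjusted p was 0.161. In the summed fronts it passed in the frontal suture (-2.0, adjusted p = 0.00244) and in the lambdoid suture (-2.0, 0.0229). The first was lost without replicate 5 (adjusted p = 0.0743), without the litter block (0.0844), with the litter as a random effect (0.131) or without frontal litters 2 and 5 of E18.5 (0.0721). The second was lost without replicate 1, 2, 3, 4 or 5 (adjusted p = 0.0515, 0.101, 0.0916, 0.156 and 0.0831) and under other alternatives (up to 0.358). The coronal SM gave 0.13 (adjusted p = 0.885).

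**Figure D4:**
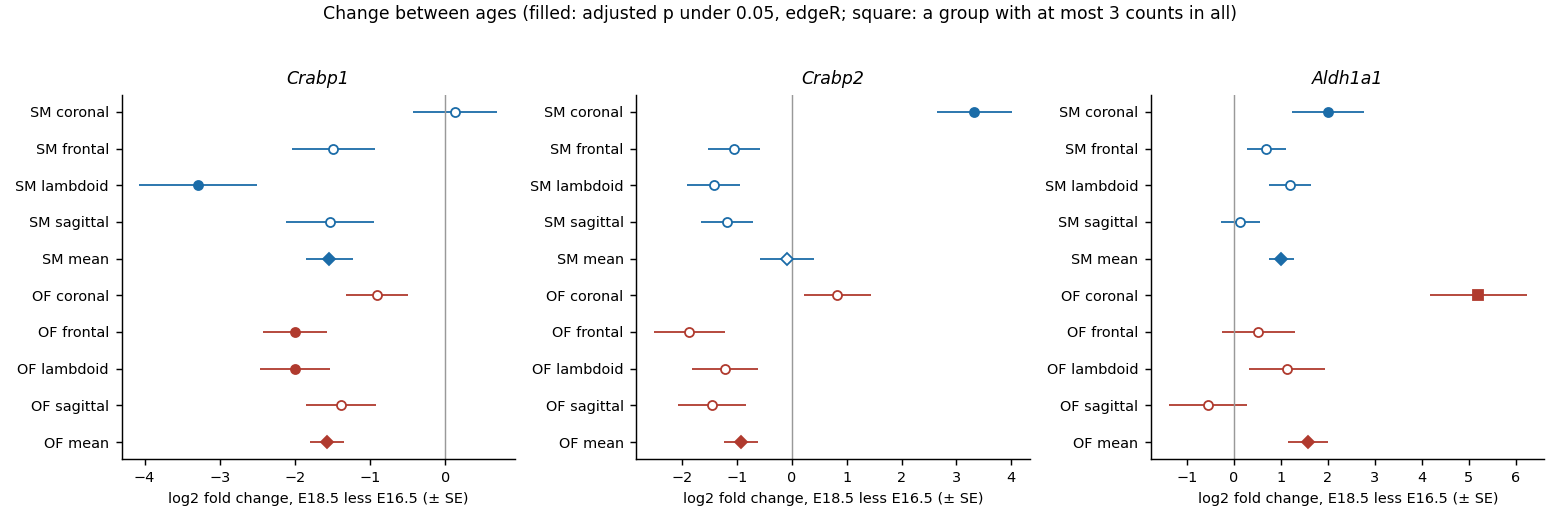
Log2 fold change from E16.5 to E18.5 of Crabp1, Crabp2 and Aldh1a1, with positive values for a higher level at E18.5, in SM and in the summed OF of each suture and on average (diamonds). Bars reach 1 standard error to each side, filled symbols passed the test, and squares mark comparisons in which an age held at most 3 counts. Both diamonds of Crabp1 (-1.54 in SM and -1.57 in OF) lie below 0 and both of Aldh1a1 above.

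Crabp2 was higher at E18.5 in the coronal SM, from at most 0.353 CPM to 0.515, 0, 1.63, 1.09 and 0.577 CPM (log2 fold change 3.33, SE 0.69, adjusted p = 0.000271), a change that starts from the E16.5 libraries that stood apart and in which 4 of 5 held no count. With second coronal libraries the sign turned (-1.60, adjusted p = 0.159), and with each suture fitted by itself the adjusted p was 0.29. In the SM of the other 3 sutures its fitted changes were -1.06, -1.43 and -1.18 (frontal, lambdoid and sagittal), and none passed (adjusted p = 0.0916 to 0.347). Fitted without the coronal suture, all 3 were lower at E18.5 (-1.06, adjusted p = 0.00329; -1.43, adjusted p = 0.000162; -1.18, adjusted p = 0.00228). The frontal SM held 8.34, 11.6, 13.8, 18 and 12.3 CPM of Crabp2 at E16.5 and 6.15, 4.57, 5.53, 6.05 and 8.34 CPM at E18.5. The lambdoid SM held 14.7, 13.3, 11.4, 12.7 and 16.3 CPM and then 3.75, 9.17, 3.21, 3.94 and 5.38 CPM, and the sagittal SM 9.87, 13.9, 8.55, 9.23 and 8.16 CPM and then 6.03, 4.8, 2.35, 3.77 and 5.01 CPM. The ages were apart in the lambdoid and sagittal SM, as for 4.11% and 3.75% of all genes in this direction, and met in the frontal SM, where the highest library of E18.5 equalled the lowest of E16.5 to 3 digits. Rarg was likewise higher in the coronal SM at E18.5 (log2 fold change 0.52, SE 0.16, adjusted p = 0.0108), but not without replicate 1, 4 or 5 (adjusted p = 0.0987, 0.141 and 0.0523) or with the second coronal libraries (0.277) and under other alternatives (up to 0.287).

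Aldh1a1 rose from the limit of detection in the coronal fronts. The summed fronts held 3 counts over 5 litters at E16.5, against 169 at E18.5, which is a ratio of 62.8 with a counting interval of 21.1 to 307.7 (adjusted p = 0.00026). With second coronal libraries it did not pass (1.63, adjusted p = 0.261). In the coronal SM the change, from 4 counts in all, also passed (0.0385), but its sign turned with the second libraries (-0.69). It was also lost without replicate 1, 3 or 5 (adjusted p = 0.106, 0.133 and 0.253) or with the second coronal libraries (0.559) and under other alternatives (up to 0.515). In the SM of the other sutures the log2 fold changes were 0.69, 1.19 and 0.14 (frontal, lambdoid and sagittal), and none passed. In the coronal fronts Aldh1a3 was lower at E18.5 (log2 fold change -1.17, SE 0.36, adjusted p = 0.0159), although not without replicate 1 (adjusted p = 0.195) and under other alternatives (up to 0.17).

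Markers of other cell types also differed between the captured regions, beside 27.6% of all genes higher and 27.4% lower in SM. Of 6 markers of the ectocranial mesenchyme, the layer outside the bones, 5 were higher in SM and 1 lower (523 to 3411 CPM in sum in SM, against 340 to 3545 in OF), and of 7 markers of the suture mesenchyme 4 were higher and 2 lower (1784 to 5632 against 1136 to 4784). All 9 tested markers of proliferating cells were lower in SM (365 to 4447 against 815 to 3938). Of 11 osteoblast markers 10 were lower in SM, with summed levels of 6220 to 36670 CPM in SM and 14430 to 61570 CPM in OF, and none of them was at 0 in every library. All 6 markers of pericytes and smooth muscle were higher in SM (144 to 551 CPM in sum, against 46.1 to 901 in OF), as were 6 of 7 markers of macrophages (40.3 to 403 against 61.1 to 230), 5 of 8 tested markers of chondrocytes (53.8 to 545 against 21.3 to 246), 4 of 6 of the arachnoid and pia (90.7 to 667 against 93.7 to 339) and 4 of 7 of the dura mater (55.6 to 575 against 26 to 235). Of these lists, too, no marker was at 0 in every library. Of the hypodermis and dermis 3 of 7 markers were higher in SM, of the periosteum 2 of 4 were higher and 2 lower, of endothelial cells 1 of 6 was higher, and of erythroid cells 3 of 5, mast cells 2 of 4 and Schwann cells and glia 1 of 3. Of 3 markers of neurons, 1 was higher and 1 lower. The 9 tested markers of osteoclasts, skeletal muscle, melanocytes and keratinocytes did not pass (edgeR; 1 had an unadjusted p under 0.05), and those of neutrophils and lymphocytes were too low to be tested. The part of these cells in the differences between SM and OF was not tested.

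Single cells of the coronal suture give levels by cell population. Cells were clustered within each age without the 9 genes, and clusters were named from marker lists. The name dura mater-like rests on 1 list gene among the 10 leading genes at each age. At E16.5 this name was kept on a tie. The cluster shared 4 leading genes with its namesake of E18.5 and 4 with a cluster of E18.5 first named hypodermis and dermis-like. Of the 1530 and 1482 barcodes of E16.5, 497 and 359 had over 800 genes. For these libraries the study's methods state larger numbers of cells, a gap whose cause was not tested. The 803 cells of E16.5 kept formed 10 clusters and the 3989 cells of E18.5 formed 13. Levels are UMIs of a gene in CPM of all UMIs of the cluster, with exact Poisson intervals that cover counting error only. The clusters are a description, with 2 libraries an age and no test. The median cell held 2501 and 2121 UMIs in the E16.5 libraries and 18480 and 7131 in the E18.5 libraries, and the libraries shared none of the kept cell barcodes at E16.5 and 4 at E18.5. The ages were run with different capture chemistries, and the one cannot be told apart from the other.

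Crabp2 and Rarg had the most UMIs of the 9 genes at E18.5. Over all cells of that age, Crabp2 stood at 90.4 CPM in library 1 and 23.2 CPM in library 2, and Rarg at 84.8 and 60.4 CPM. Erythroid-like cells, which should lack these genes, were taken as a background at E18.5. They were 78 cells of library 2, with a median of 9425 UMIs in the cluster. Rarg stood there at 18.2 CPM, Crabp2 at 5.19 CPM and Rarb and Aldh1a1 at 1.3 CPM each, which is 1 UMI each. Cyp26b1, Aldh1a2, Aldh1a3, Crabp1 and Rxrg had no UMI. Whether the UMIs in erythroid-like cells came from free RNA or from doublets was not tested. The levels of library 1, which held 1 such cell, and of E16.5 were not set against a background of their own.

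In the single cells of E18.5, Crabp2 was highest in cluster 7, which was led by Atp1b1, Itih5 and Bace2 and was left unnamed. Of its 10 leading genes it shared 4 with the dura mater-like cluster of E16.5 (Atp1b1, 1500015O10Rik, Col14a1 and Nppc) and 2 with the hypodermis and dermis-like cluster of that age (Mfap5 and Igfbp6). Crabp2 stood there at 358 CPM (95% interval 341 to 375, 1698 UMIs) in library 1 and 230 CPM (95% interval 183 to 285, 83 UMIs) in library 2. The ectocranial mesenchyme-like cluster followed with 179 and 92.1 CPM, and the dura mater-like cluster with 78.8 and 32.3 CPM. Osteoblast-like cells of cluster 1 held 11.8 and 8.77 CPM. These clusters came in the same order in both libraries of E18.5, and each was lower in library 2. At E16.5 the ectocranial mesenchyme-like cluster held 275 CPM (95% interval 213 to 350, 66 UMIs) in library 1 and 133 CPM (95% interval 49 to 290, 6 UMIs) in library 2. The dura mater-like cluster held 165 and 136 CPM, so that the former was the higher of these clusters in library 1 and level with the latter, within its interval, in library 2.

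Cyp26b1 at E18.5 was highest in the ectocranial mesenchyme-like cluster in both libraries, at 45.6 CPM (95% interval 41.9 to 49.6, 550 UMIs) and 61.1 CPM (95% interval 48.2 to 76.4, 77 UMIs). In the osteoblast-like cluster 1 it stood at 11.1 and 8.77 CPM, and in the unnamed cluster 4 at 9.46 and 9.59 CPM. Cluster 4 was led by Tppp3, Dpt and Ptx4. It was left unnamed because the suture mesenchyme list, with Hhip, and the hypodermis and dermis list, with Dpt, were level among its leading genes. The pericyte and smooth muscle-like cluster held 38.4 CPM in library 1 (16 UMIs) and 7.36 CPM in library 2 (2 UMIs). At E16.5 Cyp26b1 was found in few cells, with 13 and 8 UMIs over the 2 libraries, of which the chondrocyte-like cluster held 6 and 5.

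The synthesising enzymes were sparse. Aldh1a1 at E18.5 stood at 10.3 CPM (95% interval 7.64 to 13.7, 49 UMIs) in the unnamed cluster 7 of library 1, 10.1 CPM (95% interval 6.38 to 15.1, 23 UMIs) in the chondrocyte-like cluster and 8.95 CPM (95% interval 6.78 to 11.6, 57 UMIs) in the dura mater-like cluster. In the osteoblast-like cluster 1 it stood at 0.679 CPM. Library 2 held 17 UMIs of Aldh1a1 in all, at 1.24 CPM over its 1577 cells. Its erythroid-like cells stood at 1.3 CPM, but on 1 UMI, too few to set a background. Library 2 had 1 UMI in cluster 7, none in the chondrocyte-like cells and 4 in the dura mater-like cells, so that the order of these clusters was not seen in a second library. Among clusters with more than 1 UMI of it, Aldh1a2 was highest in the dura mater-like cluster of both libraries, at 10.4 CPM (95% interval 8.02 to 13.2, 66 UMIs) and 11.4 CPM (95% interval 4.18 to 24.8, 6 UMIs). With 30 components or at a resolution of 0.4 it was highest in a chondrocyte-like class. Aldh1a3 at E16.5 lay almost wholly in the hypodermis and dermis-like cluster, with 47 of the 50 UMIs of library 1 and 155 CPM. Of the 123 cells of that cluster, 99.19% came from library 1, and library 2 held 1 UMI of Aldh1a3 in all. At E18.5 Aldh1a3 stood at 89.2 CPM (95% interval 53.7 to 139, 19 UMIs) in a Schwann and glia-like cluster of 15 cells, all of library 1, and at 9.78 and 12.1 CPM in the osteoblast-like cluster 1.

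Of the receptors at E18.5, the level of Rarg in the clusters of mesenchyme, cartilage and bone of library 1 ran from 63.8 CPM (osteoblast-like cluster 3) to 124 CPM (ectocranial mesenchyme-like). Rarb was highest in the dura mater-like cluster (23.4 and 22.8 CPM) and the unnamed cluster 7 (23.8 and 30.5 CPM), against 4.07 CPM in the ectocranial mesenchyme-like cluster of library 1. Rxrg was found in the unnamed cluster 4, at 8.24 CPM (95% interval 6.05 to 10.9, 47 UMIs) and 5.33 CPM (95% interval 2.55 to 9.79, 10 UMIs), and in the 15 Schwann and glia-like cells, at 84.5 CPM (95% interval 50.1 to 134, 18 UMIs). Crabp1 was highest in osteoblast-like cells, at 13.7 and 10.9 CPM in cluster 1. Its highest class was instead unnamed with a minimum of 1000 genes a cell or with called doublets left out, and periosteum-like with 30 components. At E16.5 Crabp1 stood at 51.7 CPM (95% interval 16.8 to 121, 5 UMIs) and 56.9 CPM (95% interval 18.46 to 133, 5 UMIs) in the dura mater-like cluster and at 39.4 and 52.2 CPM in the unnamed cluster 2, led by Tnn, Npnt and Tnc. Of 12 pairs of a gene and an age with at least 20 UMIs and a named class at the top, that class kept its name in 11 with a minimum of 500 genes a cell or with called doublets left out, in 9 with 30 components, and in 8 with a minimum of 1000 genes or at a resolution of 0.4.

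**Figure D5:**
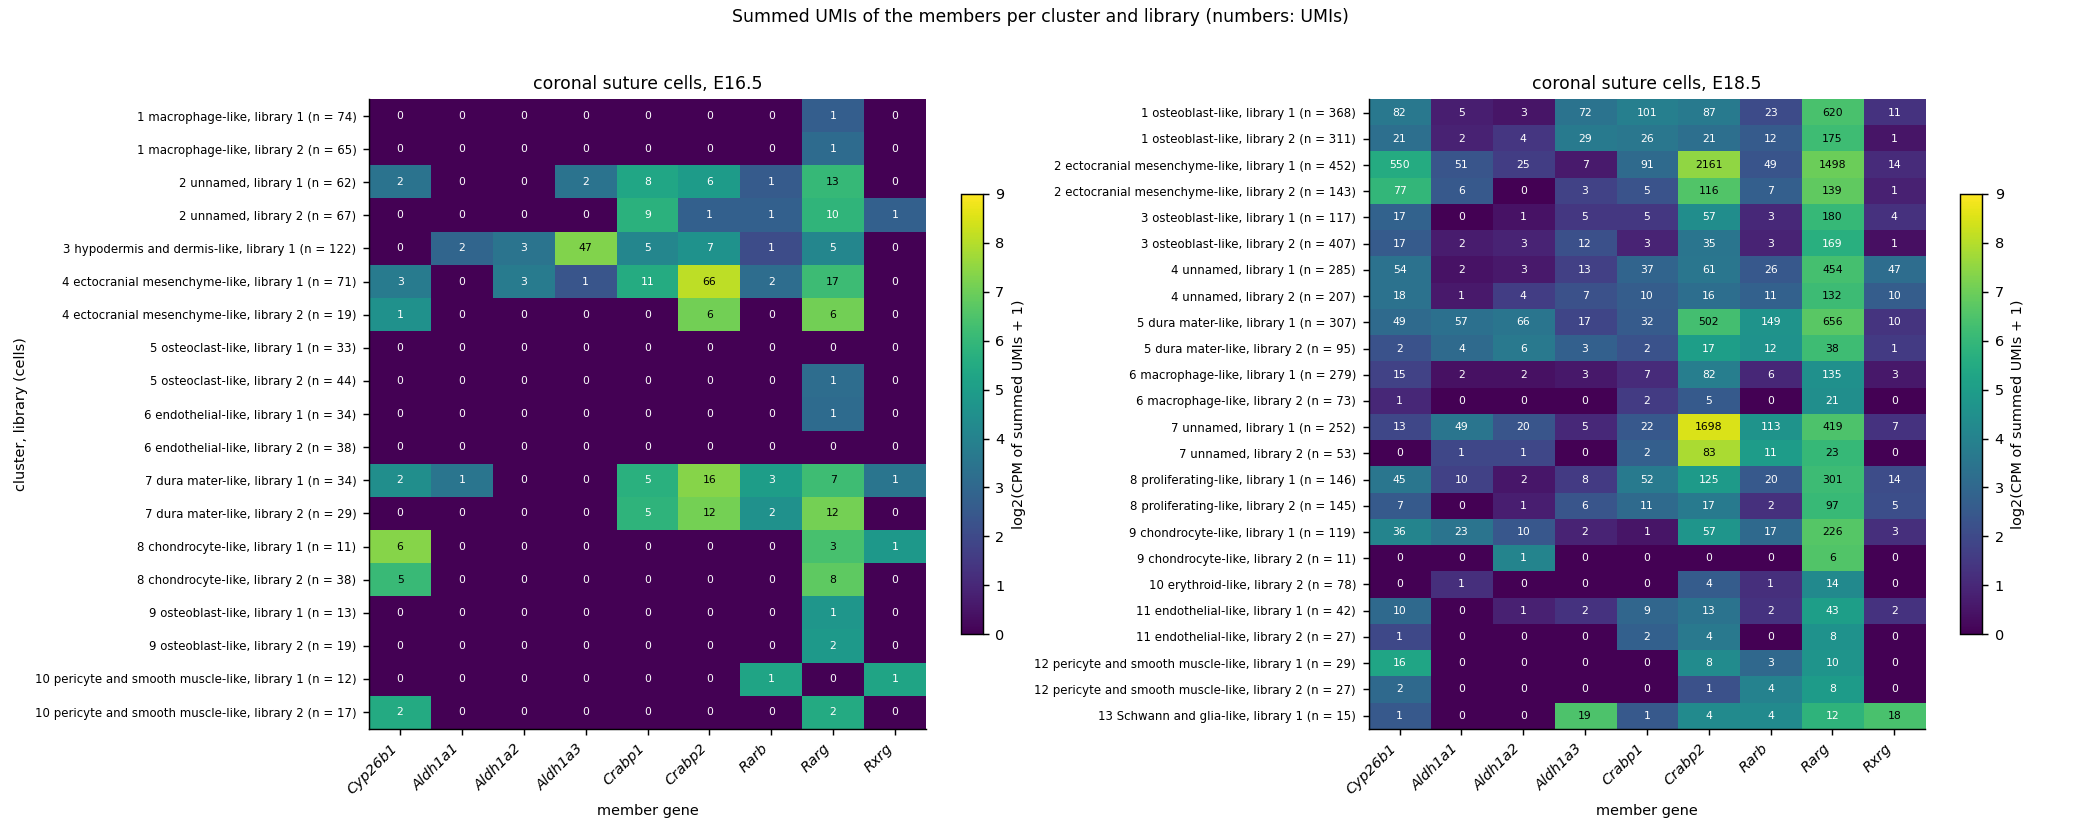
Levels of the 9 genes in the single-cell clusters of E16.5 (left) and E18.5 (right), with colour for log2 of CPM plus 1 and the number of UMIs printed in each cell, for each library with at least 10 cells in the cluster (n, cells). Crabp2 reaches 358 CPM in the unnamed cluster 7 of E18.5 and Cyp26b1 is highest in the ectocranial mesenchyme-like cluster of that age.

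Other genes of the pathway were taken from a list of 44, of which 32 passed the filter on low counts. Between SM and OF, 12 of these were higher in SM and 3 lower, and the median log2 fold change of the 32 was 0.12, against 0.047 over all genes, with 54.9% of all genes called. Without the coronal libraries of E16.5, 16 were higher and 3 lower (60.5%). The alcohol dehydrogenase Adh1, which oxidises retinol, was higher in SM (log2 fold change 2.66, SE 0.32, adjusted p = 5.39e-10), as were the orphan nuclear receptors Nr2f1 (log2 fold change 1.06, SE 0.12, adjusted p = 5.31e-11) and Nr2f2 (log2 fold change 0.85, SE 0.10, adjusted p = 1.3e-10). Stra6, the cell-surface receptor through which retinol enters cells, was lower in SM (log2 fold change -0.92, SE 0.38, adjusted p = 0.0374). In the frontal SM at E18.5, where Aldh1a1 was highest, Adh1 was at 7.02 to 15.1 CPM, against 0.508 to 6.61 CPM in FR, without overlap, as for 5.76% of all genes in this direction. Of 9 partners and co-regulators 6 were higher in SM, and of 13 enzymes of retinol and retinal oxidation and reduction 2 were higher and 2 lower. The other degrading enzymes, Cyp26a1 and Cyp26c1, were too low to be tested, at up to 0.844 and 1.84 CPM in any library. The list was drawn up with earlier results of these data known and is not independent evidence.

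Between the ages, 3 of the 32 were higher at E18.5 in SM and 3 lower, beside 13.9% of all genes called, and in OF 2 were higher and 4 lower, beside 13.4%. Without the coronal suture the counts were 6 and 3 of 31 in SM (22.4%) and 3 and 4 of 32 in OF (17.9%). The binding protein Rbp7 was higher at E18.5 in SM (log2 fold change 4.28, SE 0.49, adjusted p = 1.72e-08) and in OF (log2 fold change 3.55, SE 0.57, adjusted p = 1.51e-05). Dhrs3, which reduces retinaldehyde back to retinol, was higher in SM (log2 fold change 0.99, SE 0.13, adjusted p = 2.64e-07), where Adh7 was lower (log2 fold change -1.49, SE 0.46, adjusted p = 0.0241). Nr2f1 and Fabp5, another carrier of retinoic acid, were lower in both regions, by up to 0.63 on the log2 scale. In OF, Rbp4 was also higher (log2 fold change 1.07, SE 0.33, adjusted p = 0.0251).

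The genes whose levels were most like those of a member were found by Pearson's r of the mean log2 CPM over the 20 groups, which share litters, sutures and depth. For Cyp26b1 they were Gnao1 (0.899), Tgfbr3 (0.896) and Zbtb4 (0.892), for Aldh1a1 Xkr4 (0.963), Gm10115 (0.960) and Gm37363 (0.956), and for Aldh1a2 Col23a1 (0.914), Phxr4 (0.904) and Ptprq (0.899). For Aldh1a3 they were Adamts5 (0.80), 4933431C10Rik (0.793) and Itih5 (0.789), for Crabp1 Bche (0.897), Pgm5 (0.880) and Clu (0.873), and for Crabp2 Gm47765 (0.944), Lingo1 (0.938) and Osr1 (0.938). For the receptors they were Adamtsl2 (0.857), 5330439B14Rik (0.849) and Col4a6 (0.846) with Rarb, Strn4 (0.918), Pdzd4 (0.904) and Pex6 (0.902) with Rarg, and Sele (0.839), Mtrf1l (0.798) and Pthlh (0.794) with Rxrg. Among the 9 genes, the highest r was 0.804, between Aldh1a2 and Crabp1, followed by 0.732 between Cyp26b1 and Rarb, and the lowest -0.55, between Crabp2 and Rxrg.

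In the complete sutures of E18.5, each with 4 libraries of 1 replicate number from different library batches, the order of the sutures by median differed from that of the group means of SM for 7 of the 9 genes, all but Aldh1a2 and Rxrg. Cyp26b1, whose highest group mean among captured regions was that of the lambdoid SM, was lowest in the complete lambdoid suture, at 9.32 to 12.8 CPM, below the coronal (13.9 to 19), frontal (22.1 to 28.6) and sagittal sutures (24.4 to 30.9) in all 4 batches. Rarg, also highest in the lambdoid SM, stood at 40.6 to 51.3 CPM in the complete lambdoid suture, below the sagittal suture (45.8 to 51.4) in all 4 batches, above the frontal (30.1 to 42.8) in all 4 and above the coronal (46.7 to 52.9) in 1. For Aldh1a1, the sagittal libraries held 17.6 to 28.7 CPM, the frontal 11.6 to 13.2, the lambdoid 3.41 to 5.69 and the coronal 1.59 to 4.4 CPM. The sagittal suture was above the other 3 in all 4 batches, and the coronal libraries were above every captured coronal SM library of that age. For Aldh1a2 the frontal suture was highest, with 27.9 to 38.4 CPM, above the coronal (9 to 15.4), lambdoid (7.17 to 12.5) and sagittal sutures (3.88 to 6.94) in all 4 batches. Crabp2 stood at 6.86 to 15.8 CPM in the complete coronal suture, where the 15 captured coronal libraries of E18.5 reached 6.51 CPM. Complete and captured libraries were scaled with TMM factors from separate runs, so that their CPM do not share 1 scaling. Rxrg was again higher in the coronal than in the frontal suture in all 4 batches, at 0.724 to 1.92 against 0.128 to 1.09 CPM.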

How the data were processed

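Count values per gene were deposited by the authors for each bulk library: read pairs trimmed with cutadapt, aligned with STAR 2.5.3a to mm10 and counted, without strand, in GENCODE vM22 exons with featureCounts 1.6.4. A table of the authors' log2 ratio values between groups was not used. UMI count matrices of single cells were also deposited, made with Cell Ranger.

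The bulk counts were tested with edgeR 4.0.16 (R 4.3.3, quasi-likelihood, TMM scaling, at least 1 CPM in over 10% of libraries, Benjamini-Hochberg over all genes, threshold 0.05). SM and OF were compared in 1 fit of the 100 first libraries, with the litter as a block because libraries of 1 replicate number in a suture and age carry the same litter label (median correlation of deviations 0.0429 over 60 such pairs, against -0.01 for others). Ages were compared in 40 SM libraries and in 40 sums of OF counts. For CPM values, the TMM factors of the first libraries came from a run on those alone. Those of the second and complete-suture libraries came from a run over all bulk libraries. The dispersion trend of the block fit was read from every 5th gene by abundance. The scripts were tested on simulated data. The 5 libraries of a group carry different litter labels, some with a shared stem. For each gene the p-values rest on 1 estimate of spread pooled over all libraries of a fit. A p-value of 1 suture and age thus does not measure the spread of its own libraries alone. In the coronal suture at E16.5, 27.2% of all genes passed against FR. The libraries separated there for 1.79% with SM above and 2.48% with FR above. In the sagittal suture at E16.5 these shares were 18.4%, 14.6% and 18.6%. Intervals and floors cover counting error only.

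Cells with over 800 genes and within 3 median absolute deviations of their library were kept (466 of 1530 and 337 of 1482 barcodes at E16.5, 2412 of 2628 and 1577 of 1999 at E18.5) and clustered with scanpy 1.11.5 (2000 variable genes, 13 components, resolution 0.8). A cluster with 1 list gene among its 10 leading genes lost its name where a cluster of another name shared more of those genes than one of the same name at the other age, a rule added after seeing the data. Doublets were kept in the main clusters and removed with scrublet in an alternative.

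The genes named are all 9 members, up to 5 pathway genes per mean comparison by size among those that passed, and the 3 genes most alike each member. Some pathway genes that this rule names are not reported here. The members and lists were chosen with earlier results of these data known. Promoters are those of RefSeq (GRCm38.p6). Alternatives were other scalings (median ratio, none), filters (filterByExpr, none), tools (limma voom 3.58.1, DESeq2 1.42.0) and blocks, second coronal libraries and left-out replicates.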

Additional observations from a re-analysis of the deposited data

Results flagged for a closer look

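In 19 of the 180 sets of 5 libraries of a gene and group (10.6%), the highest or lowest library lay far from the other 4, with a gap to its nearest neighbour over 0.71 of the whole range. Over all genes tested the same share of sets was 10.6%, so that the 9 genes lay at the background. In normally distributed values chance gives about 1 in 20, and in 3 of the 19 sets the other 4 libraries held no count. For Cyp26b1 it was the frontal SM of E16.5, replicate 1 (39.8 CPM, group median 25.9). For Aldh1a1 these were the coronal FR of E16.5, replicate 4 (0.15 CPM), the coronal SM of E18.5, replicate 5 (0.622), the coronal PA of E18.5, replicate 3 (2.33), and the lambdoid PA of E16.5, replicate 1 (1.62). For Aldh1a3 they were the frontal SM, replicate 5 (11.2 CPM), and the lambdoid PA, replicate 1 (5.71), both of E18.5. For Crabp1, replicate 1 of the lambdoid IP was low at E16.5 (1.52 CPM) and high at E18.5 (2.62), and replicate 2 of the sagittal SM of E16.5 was low (4.05). For Crabp2 they were the coronal SM of E16.5, replicate 1 (0.353 CPM), the coronal FR of E16.5, replicate 3 (2.65), and the coronal PA of E18.5, replicate 2 (6.51). For Rarb they were the coronal PA of E16.5, replicate 5 (10.6 CPM), the coronal SM of E18.5, replicate 2 (12.8), and the frontal FR of E18.5, replicate 2 (7.36). Rarg was low in the coronal FR of E18.5, replicate 5 (27.0 CPM, group median 40.4). Rxrg was high in the coronal FR of E16.5, replicate 3 (0.749 CPM), and in the frontal SM of E16.5, replicate 2 (0.141).

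The difference between SM and OF varied among the 4 sutures for Rxrg (adjusted p = 1.46e-06), Crabp2 (0.0202), Aldh1a3 (0.0224) and Rarg (0.0355), by the F test of edgeR over the suture means.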

How the results depend on the processing

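Of the single values, 3 reversed, each with second coronal libraries in place of the first: Crabp2 of the coronal SM of E18.5 against FR (-2.86) and from E16.5 to E18.5 in the coronal SM (-1.60), and Aldh1a1 over the same ages (-0.69). The count of the 9 genes in the mean of SM against OF was 5 or 6 under the alternatives, save 8 without the coronal libraries of E16.5, with 25.6 to 60.9% of all genes called (54.9% in the main test). That of the 12 single comparisons ran from 20 without replicate 1 to 41 with each suture fitted by itself, where 100 tests were left, against 28 of 108, with 8.26 to 24.8% of all tests over all genes called (19% in the main test). The main tests between regions held the litter as a replicate block. The fit with no replicate block gave 5 genes in the mean (55.4% of all genes). In the single comparisons that fit gave 31 (19% of all tests over all genes). Among sutures it gave 4 (20% of all genes) and between fronts 2 (5.09% of all tests over all genes). It gave 0 between the ages and 15 in the pathway list. The age comparisons hold 1 library a litter. With all 100 libraries in 1 fit and no replicate block, 1 gene passed in SM (11.1% of all genes) and 4 in OF (12.2%) on average. Within sutures 2 tests passed in SM (8.39% of all tests over all genes) and 6 in OF (10.6%). Between fronts, where 1 of 36 passed (4.06% of all tests over all genes), there were 5 with the litter as a random effect (6.30%), 3 with limma voom (6.14%), 5 with DESeq2 (8.52%), 3 without a filter (2.34%), 3 with second coronal libraries (2.68%), 2 with each suture fitted by itself (1.59%), and 4 of 27 without the coronal libraries of E16.5 (5.59%). In SM, the 3 genes that changed with age (13.9%) became 1 with the litter as a random effect (10.1%) and 5 without the coronal suture (22.4%), and the 4 of 36 within sutures (9.91%) became 8 with DESeq2 (12.8%), 1 with second coronal libraries (4.61%) and 10 with each suture fitted by itself (9.04%). In OF, the 5 genes (13.4%) became 2 with the litter as a random effect (11.2%), 1 with limma voom (12%), 2 without TMM (10.7%), 3 without a filter (6.17%), 3 with second coronal libraries (11.6%) and 2 without the coronal suture (17.9%), and the 4 of 36 within sutures (9.56%) became 8 with limma voom (10.3%), 7 with DESeq2 (12.4%) and 9 with each suture fitted by itself (7.83%). Leaving out 1 replicate number gave 1 to 2 genes among sutures (13.7 to 19.2% over all genes, and 4 and 19.9% with all replicates). Between fronts it gave 1 to 3 (2.54 to 3.76%). In SM it gave 1 to 4 with age (9.83 to 13.3%) and 2 to 5 within its sutures (6.97 to 9.77%). In OF it gave 1 to 3 with age (8.65 to 12.4%) and 2 to 4 within its sutures (6.70 to 7.66%). The highest named class of single cells kept its name in 8 to 11 of 12 cases. The cause of these shifts was not tested, beyond the fewer libraries of a fit that leaves some out. With the litter label stem as a random effect, 1 gene passed with age in SM (8.03% of all genes) and 1 in OF (12%) on average. Within sutures 4 tests passed in SM (8.53% of all tests over all genes) and 8 in OF (10.3%). That fit and the fits without the coronal suture, its E16.5 libraries or the frontal litters 2 and 5 of E18.5 were chosen after seeing the data. The FR libraries of frontal litters 2 and 5 correlated with the rest of their group at 0.925 and 0.888. Coronal replicate 2 (0.906 in SM and FR) and lambdoid SM replicate 3 (0.913), both of E18.5, were not left out in this way. Means of a suture over both ages were refitted only without the coronal libraries of E16.5 and without those frontal litters. Of 36 tests, 19 (36.3% of all tests over all genes) and 16 (31.7%) passed, against 19 (32.3%) in the main fit. Counts of 3 or fewer in a group of 5 libraries limit Aldh1a1 in the coronal suture and Rxrg in the frontal SM.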

Other observations

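The 18 second libraries of coronal samples carry the litter and region labels of 18 first libraries, and how the 2 sets differ in preparation is not given in the sources used here. Rarg was higher in the second library in 16 of 18 pairs and Crabp2 in 14. The first and second libraries were scaled with TMM factors from separate runs, so that their CPM do not share 1 scaling. The share of all genes higher in the second library is not given here. In the SM of E16.5, Rarg stood at 16.54, 35.4 and 31.6 CPM in the first libraries of replicates 1, 2 and 3 and at 46, 51.8 and 53.1 CPM in the second. For the other genes the second library was higher in 7 (Aldh1a2) to 12 (Crabp1) of 18. Rxrg of the same SM stood at 2.52, 6.23 and 8.3 CPM in the first and at 1.2, 2.76 and 4.14 CPM in the second libraries. Cyp26b1 stood at 30.4, 62.5 and 44.2 CPM in the first and 27.5, 27 and 31.2 CPM in the second.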
